A study of Mus musculus with 2 samples.

Results

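The respiratory chain genes of the mouse retina were followed as a module of 112 genes among the 32227 genes counted. Members were taken by name, as genes whose symbol begins with mt-, Nduf, Sdh, Uqcr, Cox4, Cox5, Cox6, Cox7, Cox8 or Atp5, without pseudogene names. This rule uses no measured value, but it was set with earlier results of these data known. They comprise 13 protein-coding genes of the mitochondrial genome, called mt- genes below, and 99 genes of the nuclear genome, of which 87 encode subunits and 12 assembly factors. Transcripts were counted in single nuclei of whole retinas from C57 BL/6J mice, all at postnatal day 21, in 1 library of Cre- controls (genotype given as WT) and 1 of Tet tcKO animals. The latter carried floxed alleles of Tet1, Tet2 and Tet3, which encode the enzymes that oxidise methylated cytosine, recombined by a Chx10-Cre-GFP transgene in retinal progenitor cells. Controls were age-matched animals from Cre- breeders, and whether they carried floxed alleles was not stated for these samples. The transgene is known for mosaic activity, for which Cre+ breeders were in-crossed. Each library mixed nuclei from 2 dissociations of retinas pooled over animals, and no nucleus is tied to a pool or an animal. Every difference between genotypes below is therefore a difference between 2 libraries with no replicate check, and the intervals cover counting error only.

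Oxidative phosphorylation runs through 5 protein complexes of the inner mitochondrial membrane. Complex I (NADH dehydrogenase) and complex II (succinate dehydrogenase) pass electrons to complex III (cytochrome bc1) and on to complex IV (cytochrome c oxidase), and complex V (ATP synthase) makes ATP from the proton gradient. Complexes I, III, IV and V combine subunits encoded in mitochondria with subunits encoded in the nucleus, whereas complex II is wholly nuclear. The mt- mRNAs are transcribed and kept inside mitochondria, outside the nucleus, while the nuclear members are transcribed in the nucleus and exported. Photoreceptors pack their mitochondria into the inner segment and are among the most energy-demanding cells known. Among the mt- members, 7 belong to complex I, 1 to complex III, 3 to complex IV and 2 to complex V. The nuclear subunits comprise 40 of complex I, 4 of complex II, 8 of complex III, 18 of complex IV and 17 of complex V, with 8 assembly factors of complex I and 4 of complex II. Complexes were assigned by gene name, so Ndufa4 and Ndufa4l2 are counted with complex I throughout.

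The mt- genes lie close together, and some share bases, which limits how far their counts can be divided. The stretches below show the ends of such pairs (GRCm39, plus strand of the mitochondrial chromosome, chrM:7915-7981 and chrM:10155-10185). Capitals mark bases that belong to both genes, and lower case marks 12 bases on each side.
mt-Atp8 and mt-Atp6: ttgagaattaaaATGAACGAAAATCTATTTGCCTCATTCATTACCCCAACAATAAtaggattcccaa
mt-Nd4l and mt-Nd4: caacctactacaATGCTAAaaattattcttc
The first overlap spans 43 bases and the second 7 bases, both in coding sequence. mt-Atp6 and mt-Co3 share the base at position 8607. mt-Nd6, which is the sole member on the minus strand, shares positions 13552 to 13565 with mt-Nd5. Reads inside these stretches could not be assigned to a single gene by position, so mt-Atp8, which is 204 bases long, and mt-Nd4l, 297 bases, carry the least certain counts.

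Among nuclear members, the sequences upstream of Cox6b2, its paralogue Cox6b1 and Atp5b (the catalytic beta subunit of complex V) are shown because the paralogues differed most in their values and Atp5b varied between cell classes. Each is the longest stretch free of protein-coding exons within 250 bases upstream of the RefSeq start, on the gene's own strand, with its 250-base window found once on that chromosome of GRCm39. Capitals mark CpG dinucleotides, the sites at which vertebrate DNA is mainly methylated.
Cox6b2 (chr7:4756094-4756224, minus strand): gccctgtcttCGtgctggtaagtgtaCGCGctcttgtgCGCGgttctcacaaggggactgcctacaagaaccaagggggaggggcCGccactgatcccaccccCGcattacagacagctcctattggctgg
Cox6b1 (chr7:30325617-30325789, minus strand): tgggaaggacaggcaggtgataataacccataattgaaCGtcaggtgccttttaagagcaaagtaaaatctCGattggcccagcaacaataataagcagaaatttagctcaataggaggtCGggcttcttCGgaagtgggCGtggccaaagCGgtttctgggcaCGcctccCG
Atp5b (chr10:127918926-127919131, plus strand): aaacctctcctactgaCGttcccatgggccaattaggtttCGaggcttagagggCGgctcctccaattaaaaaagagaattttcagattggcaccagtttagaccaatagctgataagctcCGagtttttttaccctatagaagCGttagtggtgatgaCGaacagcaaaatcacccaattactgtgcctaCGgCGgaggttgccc
The printed stretches hold 7, 8 and 8 CpGs. In the RefSeq windows of 300 bases around the start (GRCm38.p6), Cox6b2 had 10 CpGs, Cox6b1 17 and Atp5b 18, against a median of 20 over the 81 nuclear members matched by symbol and 8 over all 27025 genes of that table. The remaining 119 of the 250 bases upstream of Cox6b2 lie under exons of Garin5b, a gene on the other side, which the count table lists as Fam71e2.

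Motifs of factors known for respiratory chain promoters were counted in the same windows on both strands. The NRF1 core GCATGCGC was in 14.8% of the members' windows and in 3.05% of all windows. The ETS core CCGGAAG, bound by GABPA, was in 27.2% and 9.93%, and the YY1 motif AAGATGGCG in 9.88% and 1.64%. The ERR motif TCAAGGTCA was in 2.47% and 0.466%. Cox6b1 held the ETS core in the part not printed, while none of these 4 motifs was in the windows of Cox6b2 or Atp5b. The NRF1, ETS and YY1 motifs each hold a CpG, and the members' windows were richer in CpGs, with medians of 20 and 8. No background matched for CpGs was counted, so the part of CpG content in these shares was not tested. No overlap between motifs was removed, and these matches describe letters, not binding.

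The Cre- library held 7357 nuclei and 11510585 UMIs (molecules counted by their identifier) at a median of 1107 per nucleus, and the Tet tcKO library 6766 nuclei and 16590747 UMIs at a median of 1836.5. The libraries shared 1 cell barcode. Cell classes are the authors' annotation. In a check against marker genes, no cluster of amacrine cells, retinal ganglion cells (RGCs) or horizontal cells failed. Amacrine cluster 27, with 256 of the 403 Cre- amacrine nuclei, had 0 leading markers of its own and 0 of any other class. This held with genes ranked by summed UMIs or once per nucleus, so the check does not establish its name. Every other cluster of these classes had an own marker in at least 1 ranking. Some clusters of rods, cones, bipolar cells and Müller glia carried more leading markers of another class, so those names stand as annotated only. Rods and cones were pooled for comparisons between genotypes; this pool is 5214 rod-annotated and 265 cone-annotated nuclei in Cre-, and 6 and 3225 in Tet tcKO, so in this pool the annotated make-up and the genotype cannot be told apart. Levels of the targeted genes over all nuclei were 50.2 and 61.2 CPM (UMIs per 1000000 UMIs) for Tet1, 105 and 139 for Tet2, and 180 and 174 for Tet3 in Cre- and Tet tcKO. They count whole genes and so check neither the deletion of the floxed exons nor the labels.

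The mt- genes and the nuclear members separated between the libraries. Over all nuclei, the 13 mt- genes made up 5.47% of UMIs in Cre- (5.45 to 5.48, exact 95% interval) against 1.76% in Tet tcKO (1.76 to 1.77). Their log2 ratio, taken here and below as Tet tcKO over Cre-, was -1.63 (-1.64 to -1.63). The 99 nuclear members made up 0.515% (0.511 to 0.519) against 0.474% (0.471 to 0.477), with a log2 ratio of -0.12 (-0.13 to -0.10). For each UMI of a nuclear member, Cre- held 10.6 mt- UMIs (10.5 to 10.7), whereas Tet tcKO held 3.72 (3.69 to 3.75). The shift lay almost wholly on the mitochondrial side of the chain.

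**Figure D1:**
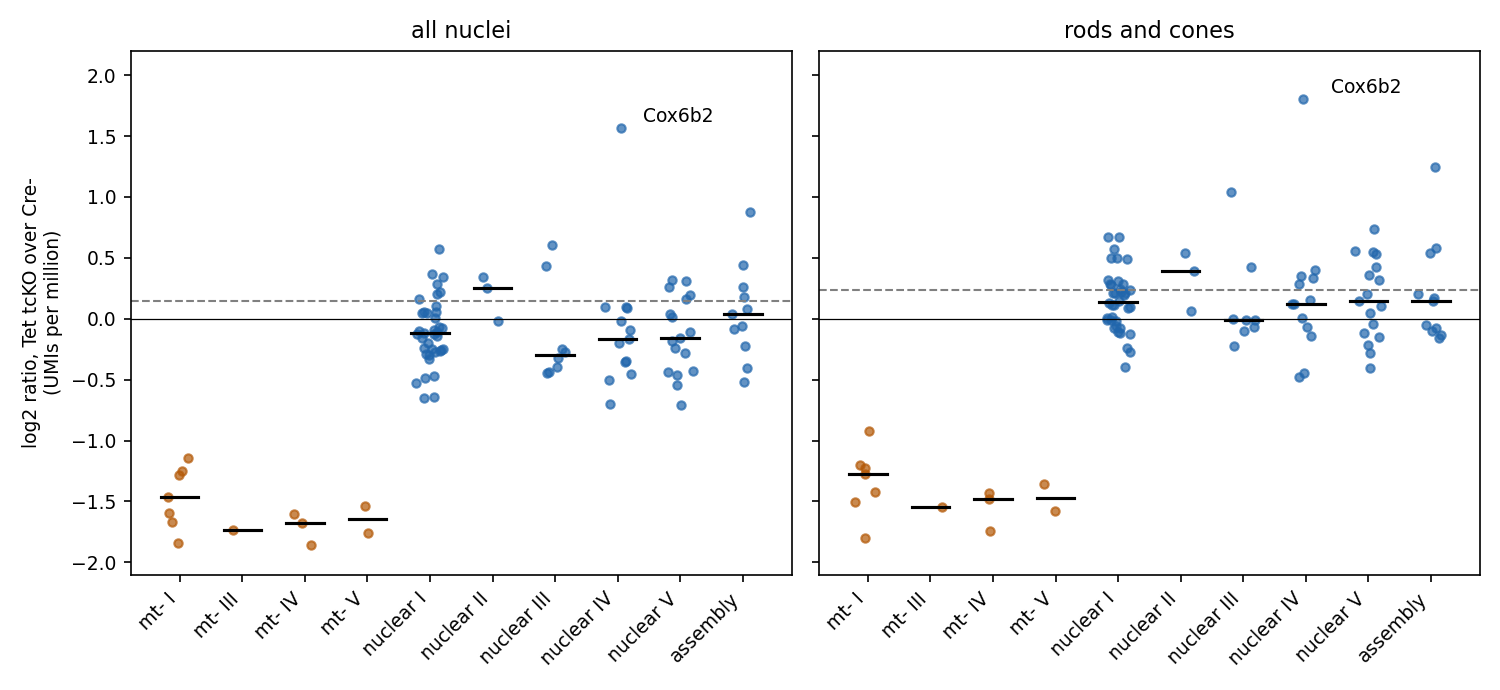
Log2 ratio of Tet tcKO over Cre- (of CPM, vertical axis) for each member that reached 10 CPM in either library, by genome and complex, over all nuclei (left) and over rods and cones (right). Each point is a gene, bars are medians, the dashed line is the median of all genes (0.15 and 0.23), and the solid line is 0. The mt- genes lie below every nuclear member in both panels, and Cox6b2 lies highest.

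All 13 mt- genes were lower in Tet tcKO by more than 2-fold over all nuclei, where 2.48% of 11158 genes at 10 CPM or more were 2-fold lower, 3.18% were 2-fold higher and the median of all genes was 0.15. The median of the mt- genes was -1.60. mt-Co1, the catalytic subunit of complex IV, had the lowest ratio, at 4147 CPM in Cre- against 1146 CPM in Tet tcKO (log2 ratio -1.85, -1.88 to -1.83). mt-Nd3, a complex I subunit, had the highest, at 462 and 209 CPM (-1.14, -1.21 to -1.08). The mt- genes thus did not move by a common factor, since these intervals lie far apart.

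Within complex IV, mt-Co2, which takes electrons from cytochrome c, stood at 3406 and 1121 CPM (-1.60, -1.63 to -1.58). The third mt- subunit of this complex, mt-Co3, stood at 16581 and 5174 CPM (-1.68, -1.69 to -1.67). In complex III, mt-Cytb, the only mt- subunit and the site of quinol oxidation, stood at 7323 and 2205 CPM (-1.73, -1.75 to -1.71). In complex V, whose proton channel is formed in part by mt-Atp6, that gene stood at 9865 and 3405 CPM (-1.53, -1.55 to -1.52). mt-Atp8, which overlaps it, stood at 632 and 187 CPM (-1.76, -1.82 to -1.70).

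Complex I holds the widest range among the mt- genes. mt-Nd1 stood at 5557 and 2017 CPM (-1.46), mt-Nd2 at 2175 and 684 CPM (-1.67), and mt-Nd4 at 3611 and 1195 CPM (-1.59). mt-Nd5 was nearly as low as mt-Co1, at 720.5 and 201 CPM (-1.84, -1.90 to -1.79). mt-Nd4l stood at 92.8 and 39.1 CPM (-1.25, -1.39 to -1.11) and mt-Nd6, the minus-strand gene, at 82.4 and 33.9 CPM (-1.28, -1.44 to -1.13). The intervals of mt-Nd3, mt-Nd4l and mt-Nd6 overlap, and these 3 genes were the least reduced over all nuclei.

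The make-up of the mt- pool differed little next to its size. Over all nuclei, mt-Co3 had the most UMIs in both libraries, 190857 in Cre- and 85841 in Tet tcKO, followed by mt-Atp6 with 113556 and 56484. mt-Nd6 had the fewest, 949 and 562. Of all mt- UMIs, mt-Co3 took 30.3% (30.2 to 30.5) in Cre- against 29.4% (29.2 to 29.5) in Tet tcKO, and mt-Atp6 took 18.05% (17.96 to 18.15) and 19.3% (19.2 to 19.5). mt-Co1 took 7.59% (7.52 to 7.65) and 6.51% (6.42 to 6.60), and mt-Nd1 10.2% (10.1 to 10.2) and 11.5% (11.3 to 11.6). Nearly every nucleus held the most abundant of them: mt-Co3 had a UMI in 7355 of 7357 Cre- nuclei and 6734 of 6766 Tet tcKO nuclei.

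The lower mt- level was present in each population compared. Rods and cones gave mt- genes 6.98% of UMIs in Cre- against 2.55% in Tet tcKO, and the log2 ratio was -1.45 (-1.46 to -1.45). In amacrine cells, the inhibitory interneurons of the inner retina, they took 2.64% (2.59 to 2.68) and 1.07% (1.05 to 1.08), with a log2 ratio of -1.31 (-1.34 to -1.28). In RGCs, the output neurons, they took 2.02% (1.99 to 2.04) and 0.912% (0.899 to 0.925), with a log2 ratio of -1.15 (-1.17 to -1.12). Horizontal cells, with 90 and 37 nuclei, had 2.41% and 0.917%, with a log2 ratio of -1.40 (-1.50 to -1.30). The difference was thus also present in nuclei annotated as other classes than photoreceptors. The RGC and amacrine pools differed in cluster make-up between the libraries. Cluster 8 held 394 of 567 RGCs in Cre- and 29 of 704 in Tet tcKO. RGC clusters 2, 31 and 8 taken singly gave -0.92, -0.66 and -0.25. Cluster 27 held 256 of 403 amacrine nuclei in Cre- and 21 of 1043 in Tet tcKO. Amacrine clusters 13, 23, 24 and 27 gave -1.46, -1.15, -0.62 and 0.32. The part of cluster make-up in the pooled ratios was not tested. In each of rods and cones, amacrine cells and RGCs all 13 mt- genes were lower by at least 1.5-fold, against 7.1%, 16.7% and 10.8% of all genes. Their medians were -1.43, -1.31 and -1.15.

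Photoreceptor markers also differed between the libraries in the inner neurons, rod and cone markers in opposite directions. The 9 rod markers summed to 2847 CPM in amacrine cells of Cre- against 1198 CPM in those of Tet tcKO, and to 2194 and 880.5 CPM in RGCs, with none of the 9 at 0. In the rod and cone pool they summed to 11120 and 5574 CPM. The 9 cone markers, none of them at 0, summed to 673 and 1267 CPM in amacrine cells, to 493 and 917 CPM in RGCs, and to 1567 and 4444 CPM in the pool. In Cre- the rod sums exceeded those of the classes' own markers, 2079 CPM of amacrine markers in amacrine cells and 1782 CPM of RGC markers in RGCs. In Tet tcKO the own markers, at 2358 and 1701 CPM, exceeded the rod sums. The part of photoreceptor RNA in the mt- values of inner neurons was not tested. Genes whose mature mRNA is abundant in cytoplasm moved the same way: the 84 cytosolic ribosomal protein genes took 0.895% of UMIs in Cre- against 0.634% in Tet tcKO over all nuclei (log2 ratio -0.50, -0.51 to -0.49), and 0.485% and 0.345% in amacrine cells. Malat1, a nucleus-retained RNA, also took a smaller share in Tet tcKO, 2.61% against 3.49%. Measured per ribosomal protein UMI, mt- UMIs numbered 6.10 in Cre- against 2.78 in Tet tcKO over all nuclei, 6.19 and 2.62 in rods and cones, 5.44 and 3.09 in amacrine cells, and 5.49 and 3.26 in RGCs. Nuclear members per ribosomal protein UMI numbered 0.575 and 0.747 over all nuclei. The mt- genes thus differed more than the ribosomal protein genes did, and the part of cytoplasmic RNA in the mt- difference was not tested.

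**Figure D2:**
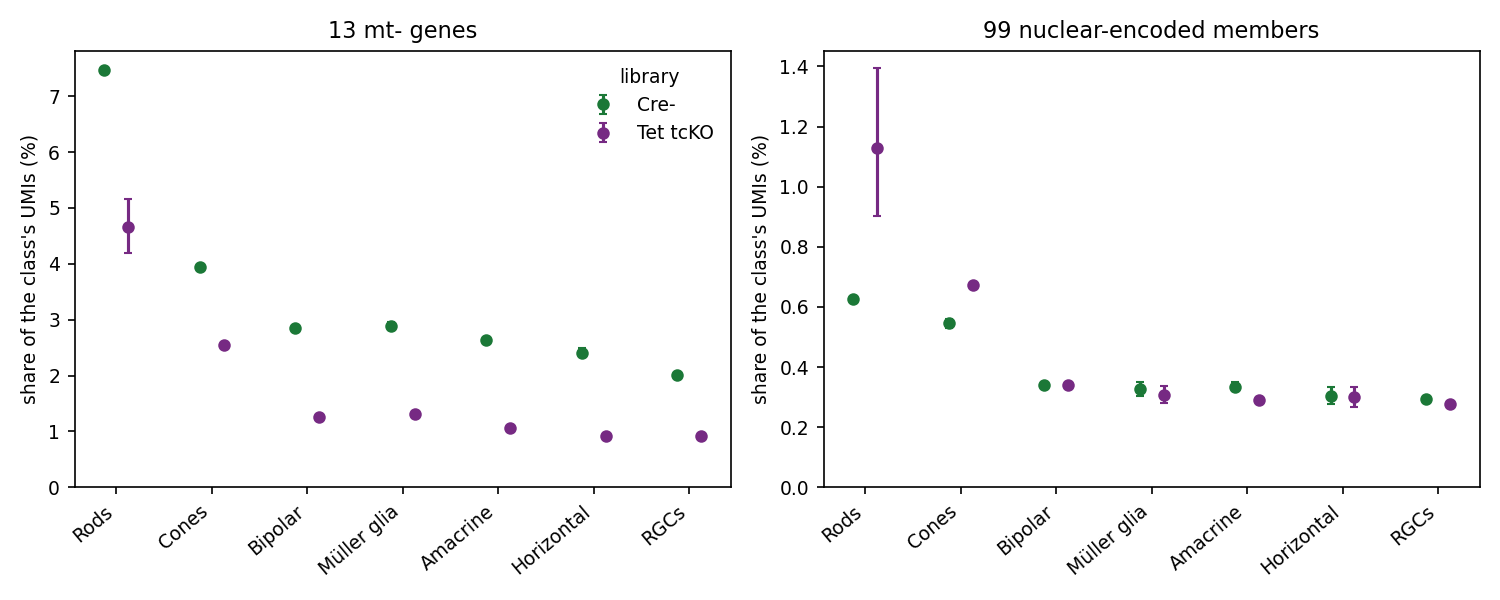
Share of each annotated class's UMIs (%, vertical axis) from the 13 mt- genes (left) and the 99 nuclear-encoded members (right) in the Cre- and Tet tcKO libraries, with exact 95% binomial intervals for counting error. The mt- share is lower in Tet tcKO in every class, while the nuclear share is close between the libraries in the inner retinal classes; the Tet tcKO rod point rests on 6 nuclei.

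By annotated class, rods stood at the top of both genomes' shares in Cre-. Cre- rods had 7.46% mt- UMIs (7.44 to 7.48) and 0.625% nuclear-member UMIs (0.619 to 0.631). Cre- nuclei annotated as cones, nearly all from cluster 11, which failed the marker check, had 3.94% (3.90 to 3.97) and 0.545% (0.531 to 0.560). Müller glia, bipolar, amacrine and horizontal nuclei followed with mt- shares of 2.89%, 2.85%, 2.64% and 2.41%, and RGCs had the lowest at 2.02%. The intervals of Müller glia (2.82 to 2.96) and bipolar cells (2.83 to 2.88) overlap, and the other neighbours in this order do not. In Tet tcKO, cones had 2.55% mt- UMIs (2.54 to 2.56) and 0.674% nuclear-member UMIs (0.669 to 0.680), and the remaining classes of 37 or more nuclei had mt- shares from 0.912% in RGCs to 1.30% in Müller glia.

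The spread between classes was wider for mt- genes than for nuclear members in Cre- and similar for both in Tet tcKO. In Cre-, the highest mt- share of a class was 3.70 times the lowest, against 2.12 times for nuclear members. In Tet tcKO these values were 2.79 and 2.43 over the 6 classes of 37 or more nuclei. The number of mt- UMIs per nuclear-member UMI ran from 6.85 (6.61 to 7.09) in RGCs to 11.9 (11.8 to 12.1) in rods of Cre-, and from 3.07 (2.71 to 3.48) in horizontal cells to 4.26 (3.85 to 4.73) in Müller glia of Tet tcKO. No class of one library overlapped any class of the other in this ratio.

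Both genomes' members were higher in photoreceptors than in inner neurons within each library. In Cre-, rods and cones over amacrine cells and RGCs together gave a median log2 ratio of 1.53 for mt- genes, 1.12 for the 89 nuclear members that reached 10 CPM and 0.14 for all genes. Of these nuclear members, 71 were at least 1.5-fold higher in photoreceptors and 0 were lower, against 29.2% of all genes higher. In Tet tcKO the medians were 1.28, 1.42 and 0.36, and 75 of 89 nuclear members were at least 1.5-fold higher, against 40.5% of all genes. Cytosolic ribosomal protein genes had medians of 1.54 and 1.67 on the same contrast, above those of the nuclear members, and the 16 citric acid cycle genes 0.38 and 0.85. Ribosomal protein genes therefore shared this photoreceptor pattern, which is not particular to the chain.

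The nuclear members with the strongest lean to photoreceptors in both libraries included Sdhaf1, an assembly factor for the iron-sulphur subunit of complex II. In Cre- it stood at 16.0 CPM in rods and cones against 2.80 CPM in amacrine cells and RGCs (log2 2.51, 1.25 to 4.16, from 121 and 5 UMIs), and at 14.6 and 2.23 CPM in Tet tcKO (2.71, 1.77 to 3.81). Uqcrfs1, the Rieske iron-sulphur protein of complex III, stood at 36.0 and 8.04 CPM in Tet tcKO (2.16, 1.66 to 2.71). At the other end, Ndufs1, the largest complex I subunit, was level in Tet tcKO, at 101 CPM in both populations (0.00, -0.17 to 0.18). Sdhaf1 was named after its values were seen.

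Only 3 nuclear members had 20 or more UMIs in every Cre- class of 100 or more nuclei, so the variation between classes could be read for few genes. Ndufs7, a complex I subunit that carries an iron-sulphur cluster, ranged 3.01-fold, from 37.4 CPM in RGCs to 112 CPM in rods. Cox6c, a structural subunit of complex IV, ranged 2.75-fold, from 80.5 CPM in RGCs to 222 CPM in rods. Atp5b ranged 2.44-fold, from 79.9 CPM in bipolar cells to 195 CPM in cone-annotated nuclei, nearly all from cluster 11, which failed the marker check. In Tet tcKO the same genes stood highest in cones, with Ndufs7 at 92.5, Cox6c at 233 and Atp5b at 230.5 CPM, apart from the 6 rod-annotated nuclei. Ndufs7 overlaps Gamt, Cox6c overlaps Vps13b and Atp5b overlaps Gm47438, each on the opposite strand; in all, 65 of 99 nuclear members overlap a gene of the opposite strand, and whether the counting used strand was not stated in the sources used here.

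Nuclear members taken singly showed small differences. Over all nuclei, 90 of the 99 reached 10 CPM in at least 1 library, with a median log2 ratio of -0.11 and a range from -0.71 to 1.57. Of these 90, 3 were at least 1.5-fold higher in Tet tcKO, against 12.9% of all genes, and 4 were at least 1.5-fold lower, against 6.93% of all genes. The majority, 69 of 90, lay below the median gene at 0.15. Among rods and cones the median was 0.13, against 0.23 for all genes, with 6 of 90 at least 1.5-fold higher (22.9% of all genes) and 0 lower (7.1%). In amacrine cells the median was -0.22, against -0.01, with 8 of 84 higher (16.7%) and 16 lower (16.7%). In RGCs it was -0.05, against 0.02, with 7 of 84 higher (11.8%) and 10 lower (10.8%). Every one of these shares of members, except the lower calls in amacrine cells and RGCs, lay below the background; in amacrine cells and RGCs, counts per member were low, as the wide intervals below show.

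Scaling mattered to the sign of these small values. The median of all genes stood at 0.15 by total counts and 0.04 under TMM factors, and that of the nuclear members at -0.11 and -0.21. TMM factors shift the log2 ratio of every gene by the same amount. They therefore give no second check on the place of the members below the median gene. With the Cre- class shares given to the Tet tcKO library, the summed log2 ratio of the nuclear members over all nuclei turned from -0.12 to 0.10. The mt- sum kept its sign there, at -1.41.

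By complex, the subunit sums of rods and cones in Tet tcKO over Cre- were 0.12 (0.09 to 0.15) for complex I, 0.26 (0.16 to 0.37) for complex II, 0.02 (-0.04 to 0.08) for complex III, 0.14 (0.10 to 0.18) for complex IV and 0.17 (0.13 to 0.21) for complex V. Over all nuclei the sum of complex II was higher, at 0.13 (0.04 to 0.21), and those of the other 4 complexes were lower, from -0.22 (-0.28 to -0.17) for complex III to -0.12 (-0.15 to -0.09) for complex V. Complex II, the one complex without mt- subunits, thus stood highest in both populations by total counts, with its interval apart from those of all the others over all nuclei; in rods and cones its interval overlaps those of complexes IV and V.

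Gene values here and below are over all nuclei unless stated. Rods and cones were 5479 of 7357 Cre- nuclei and 3231 of 6766 Tet tcKO nuclei. The part of this make-up in the ratios of single genes was not tested. Among the catalytic members of complex I, Ndufs1 stood at 82.3 CPM in Cre- against 100.5 CPM in Tet tcKO (log2 ratio 0.29, 0.17 to 0.40). Ndufv1, the NADH-binding flavoprotein, stood at 122 and 112 CPM (-0.12, -0.22 to -0.02), and its partner Ndufv2 at 47.2 and 50.8 CPM (0.11, -0.05 to 0.27). Ndufs7, by contrast, stood at 95.6 and 61.2 CPM (-0.64, -0.77 to -0.52) and Ndufa9, a quinone-site accessory subunit, at 13.2 and 19.6 CPM (0.57, 0.29 to 0.86). Core subunits of the same complex, such as Ndufs1 and Ndufs7, thus differed in opposite directions.

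In complex II, the flavoprotein Sdha stood at 94.0 and 92.6 CPM (-0.02, -0.14 to 0.09) and the iron-sulphur subunit Sdhb at 32.1 and 38.3 CPM (0.25, 0.07 to 0.44). The membrane anchor Sdhc stood at 36.3 and 46.05 CPM (0.34, 0.17 to 0.52), and the second anchor Sdhd, below 10 CPM, at 5.39 and 6.39 CPM (0.25, -0.22 to 0.72). In complex III, the core proteins parted over all nuclei: Uqcrc1 stood at 70.1 and 58.9 CPM (-0.25, -0.39 to -0.12) and Uqcrc2 at 45.4 and 61.2 CPM (0.43, 0.28 to 0.58). In rods and cones Uqcrc1 was level at 81.8 and 81.1 CPM, while Uqcrc2 stood at 47.7 and 63.8 CPM. Uqcrfs1 stood at 13.7 and 20.9 CPM (0.61, 0.33 to 0.89), and at 17.6 and 36.0 CPM in rods and cones (1.04, 0.73 to 1.35).

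In complex IV, Cox4i1, a regulatory subunit, stood at 128 and 93.7 CPM (-0.45, -0.55 to -0.35). Cox5a stood at 33.0 and 35.3 CPM (0.10, -0.09 to 0.29) and Cox5b at 74.4 and 58.0 CPM (-0.36, -0.49 to -0.22). In rods and cones Cox4i1 stood at 156 and 142 CPM, Cox5a at 38.5 and 49.1 CPM and Cox5b at 90.0 and 85.7 CPM. In complex V, the catalytic subunits Atp5a1, at 83.4 and 95.7 CPM (0.20, 0.08 to 0.31), and Atp5b, at 135 and 161 CPM (0.26, 0.17 to 0.35), were both higher in Tet tcKO. Of the central stalk, the small subunits Atp5d and Atp5e lay on the other side. Atp5d stood at 99.9 and 68.7 CPM (-0.54, -0.66 to -0.42). Atp5e stood at 56.6 and 34.5 CPM (-0.71, -0.88 to -0.55), the lowest ratio of any nuclear member at 10 CPM. In rods and cones Atp5d stood at 115 and 99.2 CPM and Atp5e at 71.0 and 53.6 CPM. Atp5c1, also of the central stalk, lay with the catalytic subunits (751 and 1214 UMIs, log2 ratio 0.17). Atp5c1 was named after its values were seen.

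Paralogues that substitute for one another in complex IV were compared next, since several mark particular tissues. Cox6b2, known as a testis isoform of the Cox6b subunit that links the enzyme's monomers, had the highest ratio in each population among nuclear members with 20 UMIs or more in either library. It had 117 UMIs in 113 of 7357 Cre- nuclei and 500 UMIs in 478 of 6766 Tet tcKO nuclei, with no nucleus above 3 UMIs, so no few nuclei carried the difference. Over all nuclei it stood at 10.2 CPM in Cre- against 30.1 CPM in Tet tcKO (1.57, 1.27 to 1.87). Its level in rods and cones was 12.3 and 42.9 CPM (1.81, 1.47 to 2.16). Cox6b1, the ubiquitous paralogue, was level over all nuclei at 51.7 and 50.9 CPM (-0.02, -0.17 to 0.13).

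Cox6b2 was also higher in Tet tcKO in nuclei annotated as inner neurons, where the summed cone markers were higher too (673 and 1267 CPM in amacrine cells, 493 and 917 CPM in RGCs). The part of cone RNA in these Cox6b2 values was not tested. In amacrine cells there were 2 UMIs in Cre- against 42 in Tet tcKO, at 3.58 CPM (0.434 to 12.9) and 17.9 CPM (12.9 to 24.2), with a log2 ratio of 2.32 (0.38 to 5.42). In RGCs there were 6 and 31 UMIs, at 4.88 CPM (1.79 to 10.6) and 14.5 CPM (9.88 to 20.6), with a log2 ratio of 1.58 (0.29 to 3.13). Bipolar-annotated nuclei had 6.23 CPM (3.11 to 11.1) in Cre- against 23.6 CPM (19.3 to 28.6) in Tet tcKO, given side by side. Cone-annotated nuclei had 11.6 CPM (6.01 to 20.3) and 43.0 CPM (38.4 to 48.0). Cre- rods, at 12.4 CPM (9.83 to 15.4), lay with the cone-annotated Cre- nuclei, nearly all of which are cluster 11. Müller glia and horizontal cells, with 2 or 3 UMIs in each library, gave no reading. Fam71e2, whose start lies beside that of Cox6b2 on the other strand, had 5 and 3 UMIs over all nuclei, too few for a ratio to be read.

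**Figure D3:**
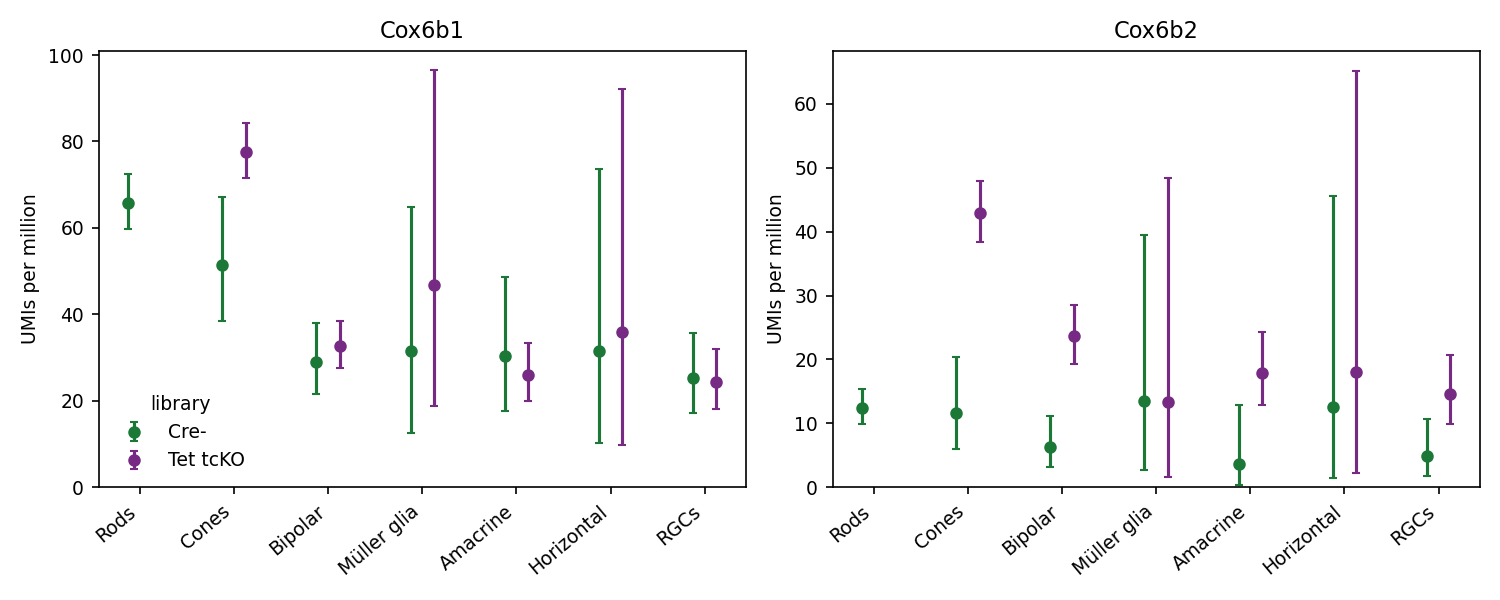
Level of Cox6b1 (left) and Cox6b2 (right) in CPM by annotated class, for classes of 37 or more nuclei in the Cre- and Tet tcKO libraries, with exact 95% Poisson intervals. Cox6b2 is higher in Tet tcKO in cones, bipolar, amacrine and ganglion cells, with intervals that lie apart in cones and bipolar cells and overlap at their ends in amacrine cells and RGCs, while the intervals of Cox6b1 overlap in every class but cones.

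Of the other paralogues, Cox7a2l, which belongs to supercomplexes, stood at 50.6 and 31.1 CPM over all nuclei (-0.70, -0.88 to -0.53), and Cox7a2 at 71.9 and 56.7 CPM (-0.34, -0.48 to -0.21). Cox7a2l overlaps Eml4 on the opposite strand and gene models on its own, so its reads are less certain. Cox6a1 stood at 79.0 and 74.0 CPM (-0.09), Cox7b at 66.3 and 71.1 CPM (0.10) and Cox8a at 102 and 109 CPM (0.09), each with an interval across 0. The muscle isoforms were nearly absent: Cox6a2 had 3 and 2 UMIs, Cox8b 9 and 6, and Cox7a1 26 and 30. Cox7b2 had 21 and 31 UMIs, and Cox8c 0 and 1. A count of 0 in the Cre- library allows up to 3 UMIs. Retinal nuclei in both libraries thus drew on the ubiquitous isoforms for most of these subunits.

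Cox4i2, the isoform of Cox4 known from hypoxic and lung tissue, stood at 10.9 and 7.72 CPM over all nuclei (-0.50, -0.87 to -0.14) and had the lowest ratio of a nuclear member in rods and cones, 12.4 and 8.91 CPM (-0.48, -0.95 to -0.01). Ndufa4, once assigned to complex I and now to complex IV, but counted with complex I here, stood at 154 and 147 CPM (-0.07, -0.16 to 0.02). Its relative Ndufa4l2 had 17 and 11 UMIs. Ndufb11, an accessory subunit of complex I on the X chromosome, stood at 48.4 and 50.0 CPM (0.05, -0.11 to 0.20), and the related Ndufb11b had no UMI in either library, which allows up to 3 in each. The 3 genes of the c-ring of complex V differed little or moved up: Atp5g1 stood at 53.3 and 53.8 CPM (0.02), Atp5g2 at 37.1 and 38.2 CPM (0.04) and Atp5g3 at 49.8 and 62.0 CPM (0.32, 0.17 to 0.47).

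Assembly factors, which are not part of the finished complexes, included the second highest ratio. Ndufaf3, an early factor of complex I, stood at 7.47 and 13.7 CPM over all nuclei (0.87, 0.51 to 1.25) and at 9.37 and 22.3 CPM in rods and cones (1.25, 0.84 to 1.67). It overlaps Impdh2 on the opposite strand, which stood at 47.9 and 45.1 CPM (-0.08, -0.25 to 0.08). Ndufaf1, which acts in the same pathway, stood at 4.09 and 8.50 CPM in rods and cones (1.06, 0.41 to 1.72), below the 10 CPM filter. Ndufaf6 stood at 12.9 and 17.4 CPM over all nuclei (0.44, 0.15 to 0.73). The 11 assembly factors at 10 CPM had a median of 0.04 over all nuclei and a range from -0.52 to 0.87, and the 79 nuclear subunits at 10 CPM a median of -0.12.

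In the inner neurons, counts per member were small. In amacrine cells, the lowest ratios were those of Sdhaf3, a complex II assembly factor (12 and 22 UMIs, -1.19, -2.27 to -0.05), the complex V stalk subunit Atp5j (36 and 68 UMIs, -1.15, -1.75 to -0.53) and Cox7a2l (19 and 38 UMIs, -1.07, -1.90 to -0.19). The highest after Cox6b2 were Ndufs5 (4 and 51 UMIs, 1.60, 0.16 to 3.53) and Ndufb10 (8 and 58 UMIs, 0.79, -0.28 to 2.07). In RGCs, Cox5b (55 and 47 UMIs, -1.02, -1.61 to -0.43), Atp5e (29 and 25 UMIs, -1.01, -1.84 to -0.19) and Ndufa5 (33 and 31 UMIs, -0.88, -1.64 to -0.13) were lowest. Ndufa8 (9 and 30 UMIs, 0.94, -0.17 to 2.203) and Ndufb11 (16 and 53 UMIs, 0.93, 0.11 to 1.84) followed Cox6b2 at the top. The intervals of Ndufb10 and Ndufa8 include 0.

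Other genes of the pathway were read from lists outside the name rule. Of 27 further assembly factors, 23 reached 10 CPM over all nuclei, with a median of 0.02, 2 at least 1.5-fold higher (12.9% of all genes) and 3 lower (6.93%). The lower ones were Uqcc3 (62.7 and 36.5 CPM, -0.78) and Lyrm7 (29.0 and 17.2 CPM, -0.76), which assist complex III, and the copper chaperone Cox17 (47.9 and 31.0 CPM, -0.63). Of the 3 electron carriers and further subunits at 10 CPM, Cycs, the cytochrome c that shuttles electrons to complex IV, stood at 27.1 and 22.6 CPM (-0.26, -0.48 to -0.04) and Cyc1 at 65.5 and 59.7 CPM (-0.13, -0.27 to 0.01).

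Genes that keep and transcribe mitochondrial DNA did not follow the mt- transcripts. Of 17 at 10 CPM over all nuclei, 3 were at least 1.5-fold higher (12.9% of all genes) and 1 lower (6.93%), with a median of 0.29 against 0.15 for all genes. Tfam, which packages mitochondrial DNA and starts its transcription, stood at 9.21 and 14.6 CPM (0.66, 0.33 to 1.01), and Polrmt, the mitochondrial RNA polymerase, at 35.4 and 31.5 CPM (-0.17, -0.36 to 0.03). Polg2, the accessory subunit of the mitochondrial DNA polymerase, was the lower one at 20.2 and 12.1 CPM (-0.73, -1.01 to -0.46). Within rods and cones, 7 of 17 were at least 1.5-fold higher (22.9% of all genes) and 0 lower (7.1%), with a median of 0.52 against 0.23 for all genes. Tfam there stood at 10.2 and 19.0 CPM (0.91, 0.49 to 1.33).

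Citric acid cycle genes and mitochondrial ribosome genes were read against the same background, 12.9% of all genes higher over all nuclei and 22.9% in rods and cones. All 16 cycle genes reached 10 CPM, with a median of 0.29 over all nuclei (3 higher, 0 lower at 1.5-fold) and 0.43 in rods and cones (7 higher, 0 lower). Of the 78 mitochondrial ribosome genes, 68 reached 10 CPM over all nuclei, with a median of 0.06 (4 higher, 0 lower), and 73 in rods and cones, with a median of 0.30 (20 higher, 0 lower), a share of higher genes near that background. These products act inside mitochondria but are encoded in the nucleus, as are the nuclear chain members at 0.13 in rods and cones.

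Among 11 regulators of mitochondrial genes, Esrrb, an estrogen-related receptor known from rods, stood at 320 and 113 CPM over all nuclei (-1.50, -1.58 to -1.42) and at 394 and 158 CPM in rods and cones (-1.32, -1.42 to -1.22). Ppargc1b, a coactivator of these receptors, stood at 134 and 89.3 CPM over all nuclei (-0.58, -0.69 to -0.48), and its relative Ppargc1a at 50.9 and 58.8 CPM (0.21, 0.06 to 0.36). Nrf1 was level at 107 CPM in both libraries (0.00, -0.11 to 0.10), and Gabpa stood at 11.3 and 16.2 CPM (0.52, 0.21 to 0.83). Over all nuclei, 0 of the 11 were at least 1.5-fold higher (12.9% of all genes) and 1, Esrrb, lower (6.93%). Rods and cones had 2 higher (22.9% of all genes), Gabpa and Nfe2l2, and 2 lower (7.1%), Esrrb and Ppargc1b.

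Clusters present in both libraries gave comparisons by number. Of the 9 clusters with 20 or more nuclei in each library, 8 had a lower mt- share in Tet tcKO, with log2 ratios from -0.25 (-0.34 to -0.16) in cluster 8 to -1.46 (-1.53 to -1.38) in cluster 13. Cluster 27, annotated as amacrine, had a higher summed mt- share in Tet tcKO, with 2.93% in 256 Cre- nuclei and 3.67% in 21 Tet tcKO nuclei (0.32, 0.23 to 0.42). The median nucleus of cluster 27 was lower in Tet tcKO, at 2.05% (quartiles 1.25% and 4.85%) against 2.52% (2.04% and 3.28%) in Cre-, so the higher sum came from the upper part of these 21 nuclei. Nuclear members in cluster 27 were also higher in Tet tcKO, 0.322% and 0.424% (0.40, 0.11 to 0.67), as was the ribosomal protein share at 0.530% and 0.818%. In cluster 13, also amacrine, with 72 and 122 nuclei, nuclear members were 0.414% and 0.290% (-0.51, -0.68 to -0.34). In the other 7 clusters the nuclear log2 ratio lay between -0.26 and 0.25. In cluster 8, with 394 and 29 nuclei, the median nucleus had 2.22% mt- UMIs in Cre- against 1.33% in Tet tcKO. The median nucleus was thus lower in Tet tcKO in all 9 clusters.

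**Figure D4:**
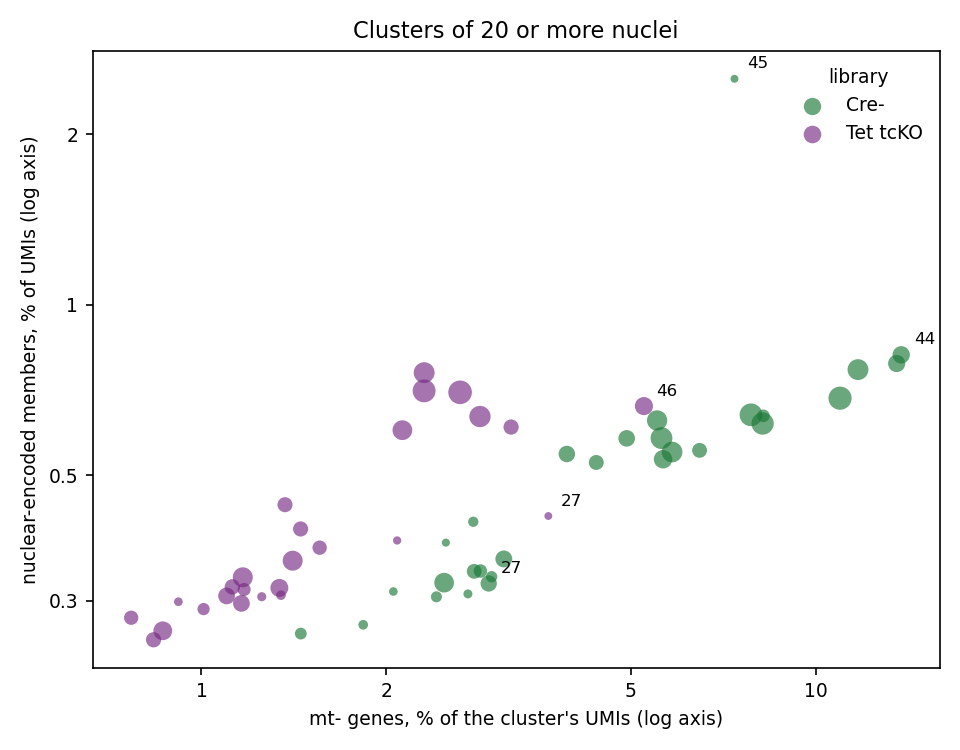
Share of UMIs from the mt- genes (horizontal) and from the nuclear-encoded members (vertical), both on log axes, for clusters of 20 or more nuclei, with point area growing with the number of nuclei. Clusters of each library form their own rising band, the Tet tcKO band lies to the left of the Cre- band apart from clusters 27 and 46, and clusters 27, 44, 45 and 46 are labelled.

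Across clusters of a library, the shares of the 2 genomes' members were correlated, given here as a description over points that share a library. Over 29 Cre- clusters, Spearman's rho was 0.93 and Pearson's r 0.48, and without cluster 45 r was 0.94. Over 26 Tet tcKO clusters rho was 0.91 and r 0.74. The mt- share tracked the ribosomal protein share as closely, with rho of 0.97 in Cre- and 0.96 in Tet tcKO. Cluster 45, 22 Cre- nuclei annotated as rods, stood apart with 2.50% nuclear members, 3.16% ribosomal protein and 0.860% Malat1 UMIs at an mt- share of 7.37%. Between single nuclei, rho of mt- and nuclear shares was 0.55 in Cre- and 0.62 in Tet tcKO over all nuclei, and 0.33 and 0.16 within rods and cones.

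The mt- share reached its highest values in rod clusters 40 and 44 of Cre-, 13.5% and 13.8%, at median depths of 702.5 and 912.5 UMIs. In Tet tcKO the highest was 5.25% in cone-annotated cluster 46 of 328 nuclei, against 0.768% in RGC cluster 2. The nuclear-member share of Cre- clusters 40 and 44 was 0.787% and 0.816%, and that of Tet tcKO cone clusters 48, 51 and 55 was 0.759%, 0.705% and 0.700% at mt- shares of 2.30%, 2.30% and 2.64%. Other photoreceptor clusters lay closer: Cre- cluster 10 had 5.51% mt- and 0.625% nuclear-member UMIs, near Tet tcKO cluster 46 at 5.25% and 0.662%, and Cre- clusters 9, 11 and 16 had mt- shares from 3.93% to 4.92%.

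Depth moved with the mt- share and differed between the libraries, so nuclei were compared within ranges of UMIs. For rods and cones of 500 to 1000 UMIs, mt- genes took 8.65% in Cre- against 4.12% in Tet tcKO, in those of 1000 to 2000 UMIs 7.32% and 2.88%, in those of 2000 to 5000 UMIs 5.59% and 2.33%, and in those of 5000 to 10000 UMIs 4.00% and 2.33%. The Tet tcKO value was lower in each range, and it was lower in each range of amacrine cells and RGCs as well. Nuclear members took 0.628% and 0.673% of UMIs in rods and cones of 1000 to 2000 UMIs, and 0.530% and 0.692% in those of 5000 to 10000 UMIs. In RGCs of 2000 to 5000 UMIs they took 0.295% and 0.282%. The lowest range holds 103 rod and cone nuclei and 9 RGCs of Tet tcKO, and the highest 6 amacrine nuclei of Cre-.

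**Figure D5:**
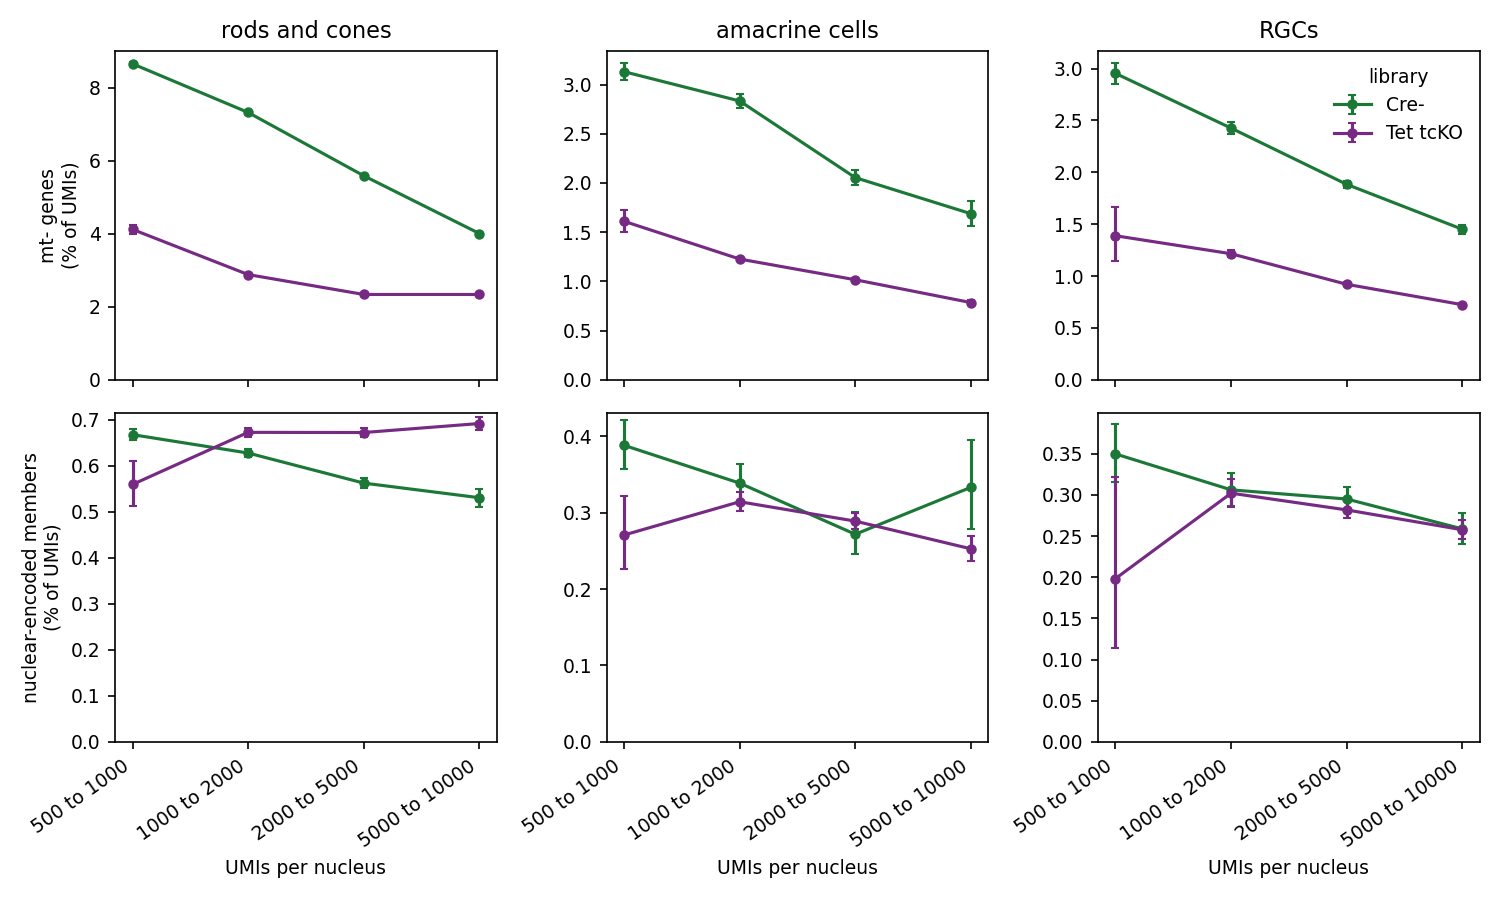
Share of UMIs from mt- genes (top) and nuclear-encoded members (bottom) by UMIs per nucleus in rods and cones, amacrine cells and RGCs of both libraries, with exact 95% binomial intervals. The mt- share is lower in Tet tcKO in every range of each population, while the nuclear shares of the libraries lie closer together.

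The authors' own mitochondrial percent, on which nuclei were filtered, counts more than the mt- genes. It corresponded to a whole number of UMIs in 14123 of 14123 nuclei (within 0.0001). A least-squares fit over the 9000 most counted genes gave 684 genes a coefficient above 0.5, among them 13 of 13 mt- genes and 81 of 82 nuclear members fitted, all but Ndufb1. The percent thus covers nuclear members of the chain as well. Of the authors' count, mt- genes made up a median of 58.1% per nucleus in Cre- against 29.3% in Tet tcKO. The whole count took 9.16% and 5.55% of all UMIs, while the count without mt- genes took 3.70% and 3.79%, so the difference in the percent lay in the mt- genes. Near the limit of 20% that the study set, 404 Cre- nuclei and 3 Tet tcKO nuclei had 18% or more, and the median of the authors' percent was 17.5% in rod cluster 40 and 17.8% in rod cluster 44. Nuclei beyond the limit were not analysed here.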

How the data were processed

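The members and the gene lists were chosen with earlier results of these data known. Nuclei were isolated from whole retinas, captured with a PIPseq 3′ kit and sequenced, and the authors processed reads with pipseeker 3.3.0 against GRCm39, removed ambient RNA with CellBender 0.3.0 (cell probability of 0.99) and worked in Monocle3, per the labels and the study's methods. They kept nuclei of 500 to 10000 transcripts with under 20% mitochondrial transcripts. The deposited matrices hold raw UMI counts per gene and nucleus, and the deposited cell tables hold total counts, a size factor (a ratio, not used for levels), the authors' mitochondrial percent, a cluster and a cell type. The deposited gene table holds a signal per genotype, the mean of counts per 10000, which equalled the matrices for all 32227 genes and checked the row order. The strand setting of the counting and any removal of doublets are not given in the sources used here, and no doublet caller was run.

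For each population, UMIs of all its nuclei were added up per gene and divided by their total, as CPM. Each genotype had 1 library, so no test was run and no p-value is given. Intervals are exact at 95% (Poisson for counts, Clopper-Pearson for shares, conditional binomial for ratios) and cover counting error only, since cells of a library are not replicates. A count of 0 was set to 3 in ratios, and ratios with 3 or fewer UMIs on both sides were left out. Members were called past 1.5-fold, or 2-fold where stated, among genes that reached 10 CPM in either library. Class names were checked by fixed markers: a cluster failed where, in its 10 leading genes, those of a different class outnumbered its own. A cluster with 0 markers of its own and 0 of any other class therefore passed, and its pass does not establish its name. The check failed for 3 of 15 rod, 1 of 9 cone, 1 of 9 bipolar and 2 of 3 Müller clusters.

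Named genes were all mt- genes, core subunits, members with a paralogue, the 5 highest and 5 lowest ratios over all nuclei, the 3 highest and 3 lowest in each other population with 20 or more UMIs in either library, and the 3 members with the widest spread over Cre- classes. An item that this rule names is not reported here. Genes named from the other pathway lists were picked after their values were seen. Annotation was GENCODE vM39, and promoter windows were from RefSeq (GRCm38.p6), which matched 81 of 99 nuclear members. Scaling factors came from edgeR 4.0.16 and DESeq2 1.42.0 in R 4.3.3, and all else from Python 3.11.15 (scipy 1.17.1, numpy 2.4.6, pandas 2.3.3). The intervals were tested only on counts simulated under the Poisson and binomial models that they assume. That test checks the calculation and cannot show how well the intervals suit these data. No column of per-sample values was left unused for want of a sample.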

Additional observations from a re-analysis of the deposited data

Results flagged for a closer look

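The summed nuclear members differed in direction between populations: their log2 ratio of Tet tcKO over Cre- was 0.14 (0.12 to 0.15) in rods and cones and -0.20 (-0.27 to -0.12) in amacrine cells, a difference of 0.33. The direction in rods and cones depended on scaling, since it was -0.055 under TMM factors and -0.033 under median-of-ratios factors. The summed mt- genes went opposite ways in 2 amacrine-annotated clusters, with 0.32 in cluster 27 and -1.46 in cluster 13, a difference of 1.78. This holds for summed UMIs only: the median nucleus was lower in Tet tcKO in both, at 2.05% against 2.52% in cluster 27 and 0.91% against 2.42% in cluster 13. Each value rests on 1 library per genotype, so neither difference was tested. Cluster 27 holds 21 Tet tcKO nuclei.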

How the results depend on the processing

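No paired analysis was possible because each genotype has 1 library and the labels give no replicate numbers, and for the same reason no library could be left out. The mt- sums stayed below 0 under all 17 alternatives run, and their size depended on the setting more than on counting error. Over all nuclei the log2 ratio of -1.63 became -1.74 under TMM factors, -1.74 under median-of-ratios factors, -1.74 as a mean over nuclei, -1.51 in nuclei of 1000 to 5000 UMIs, -1.75 with each nucleus thinned to 500 UMIs, -0.79 when a gene scored at most 1 per nucleus and -1.41 with Cre- class shares. In rods and cones, -1.45 became -1.64, -1.62, -1.51, -1.36, -1.51 and -0.84 in the same order, without the class shares. Counting a gene once per nucleus caps genes that nearly every nucleus holds. The nuclear sums were small enough to change sign. Over all nuclei, -0.12 became -0.22 under TMM, -0.23 under median of ratios, -0.17 without mt- genes in the total, -0.21 as a mean over nuclei, -0.061 at 1000 to 5000 UMIs, -0.22 thinned, -0.10 once per nucleus and 0.10 with Cre- class shares. In rods and cones, 0.14 became -0.055, -0.033, 0.069, 0.063, 0.16, 0.053 and 0.078 in the same order. The median of the nuclear members, -0.11, reversed with Cre- class shares, to 0.077, and lay between -0.26 and -0.05 under the rest of these settings. The number past 1.5-fold, 7, was 1 at 2-fold, 11 under TMM and 11 under median of ratios.

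Alternatives chosen after seeing the data left out nuclei at 18% or more of the authors' mitochondrial percent, or divided by ribosomal protein UMIs. The first gave -1.54 and -0.087 over all nuclei, and -1.36 and 0.17 in rods and cones, for mt- and nuclear sums. The second gave -1.14 and 0.38 over all nuclei (0.39 for the median) and -1.24 and 0.35 in rods and cones. The causes of these changes were not tested.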
